A study of Mus musculus with 4 samples.

Results

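Oxidative phosphorylation (OXPHOS) is carried out by 5 enzyme complexes of the inner mitochondrial membrane, and the genes described here encode their subunits. Members were protein-coding genes of the deposited tables, chosen by symbol. Nuclear symbols began with Nduf (complex I), Uqcr (complex III), Cox4 to Cox8 (complex IV) or Atp5 (complex V), or were Sdha to Sdhd (complex II). Mitochondrial symbols began with mt-Nd, mt-Co, mt-Atp or mt-Cytb. This rule gave 101 of 22619 genes. Of these, 89 are nuclear (46 in complex I, 4 in II, 8 in III, 14 in IV and 17 in V) and 12 are mitochondrially encoded (7 in complex I, 1 in III, 3 in IV and 1 in V). The mitochondrial gene mt-Atp8, which encodes a further subunit of complex V, was not among the 12. The symbols also took in 8 complex I assembly factors (Ndufaf1 to Ndufaf8) and Atp5s and Atp5sl, which are not subunits of the finished enzymes.

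Complexes I to IV pass electrons from nutrients to oxygen and, except for complex II, pump protons across the inner membrane, and complex V lets them flow back to make ATP. Most subunits are transcribed in the nucleus and imported, while a small set of hydrophobic core subunits is transcribed from both strands of mitochondrial DNA as long polycistronic RNAs that are cut into single messengers. All 4 subunits of complex II are nuclear, and developing neurons raise their use of the pathway as they leave the progenitor state.

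The libraries were made from total RNA of cortical tissue of C57BL/6 mouse embryos at stage E16.5 of embryonic development (the tissue label itself reads brain). A pair of libraries carries the label H2A.Z.2 conditional knockout (replicates 1 and 2, cKO 1 and cKO 2 below), and a pair carries the label wild type (replicates 1 and 4, WT 1 and WT 4). H2A.Z.2 is a histone H2A variant encoded by H2afv. The sources used here do not give the driver of the deletion, the deleted exons or whether libraries come from separate embryos. The p-values below therefore cover only the variation among these 4 libraries, which may be technical.

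H2afv stood at 128 and 127 CPM (read counts scaled to a common library size) in cKO 1 and cKO 2, against 136 CPM in WT 1 and 222 CPM in WT 4. The knockout label is therefore hardly separated from WT 1 by the gene itself, and the libraries are called the libraries labelled cKO. WT 4 differed from the other 3 in several ways: dividing-cell markers (5 of 5 listed) summed to 730 CPM in it and 298 to 356 CPM in the others, neuron markers (8 of 8) to 5836 CPM in it and 6857 to 7866 CPM in the others, and 3 genes that carry ribosomal RNA reads took 0.383% of its reads and 0.0346% to 0.0480% of theirs. Not every neuron marker followed that sum: Bcl11b was highest in WT 4 (349 CPM, against 302 to 336 CPM in the others). Dcx and Map2 in WT 4 lay within the range of the others. Intermediate progenitor markers (4 of 4) summed to 612.5 CPM in WT 4 and 350 to 405 CPM in the others. Radial glia markers (6 of 6) summed to 1355 CPM in WT 4 and 832 to 1017 CPM in the others. Among the latter, Slc1a3 was lowest in WT 4 (83.2 CPM). Erythroid markers (7 of 7) summed to 707 CPM in WT 4 and 760 to 969 CPM in the others. Among these, Hbb-y was highest in WT 4 (72.3 CPM, against 0.503 to 2.02 CPM). Choroid plexus markers (7 of 8 listed) summed to 508 CPM in cKO 1, 59.4 CPM in cKO 2, 42.9 CPM in WT 1 and 17.7 CPM in WT 4. Most of the cKO 1 sum was Ttr (465 CPM), while Otx2 was highest in WT 4 (8.09 CPM) and Kl in WT 1 (0.519 CPM). The cortical markers (5 of 5) summed to 1479 CPM in cKO 1, 2316 CPM in cKO 2, 1780 CPM in WT 1 and 1573 CPM in WT 4, and no marker gene was at 0 in any library. Each of these values moves with some of the results below, and their part in them was not tested. In bulk tissue, fewer cells of a type and less RNA per cell cannot be told apart.

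Several mitochondrial genes have near-identical copies in nuclear DNA, and reads from them can be assigned to either place. A block of 7 such copies lies on the minus strand of chromosome 1, from 24611535 to 24616197 (GRCm38). The copy of mt-Co2, Gm28661, matches it over 681 bases with 0 mismatches, so a read from this stretch fits both genes. The copy of mt-Co1 on chromosome 2, Gm13340, differs at 37 of 1545 bases. A stretch of 60 bases (bases 301 to 360 of each gene, on the gene's own strand, from GENCODE M21 transcripts) shows both cases, with capitals at the base that differs between mt-Co1 and Gm13340:
mt-Co2: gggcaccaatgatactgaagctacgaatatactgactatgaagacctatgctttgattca
Gm28661: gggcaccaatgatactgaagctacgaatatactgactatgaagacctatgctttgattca
mt-Co1: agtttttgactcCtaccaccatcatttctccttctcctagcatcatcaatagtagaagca
Gm13340: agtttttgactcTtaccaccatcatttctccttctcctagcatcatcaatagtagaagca

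Counted in windows of 50 bases, the share of a gene's longest annotated transcript also found in another annotated gene was 0% for mt-Nd1, mt-Nd6 and mt-Cytb, 8.19% for mt-Nd2 and 7.61% for mt-Nd5. It was 51.1% for mt-Co1 and 62.2% for mt-Nd4. For mt-Co2, mt-Co3, mt-Atp6, mt-Nd3 and mt-Nd4l it ran from 98.0% to 100%. Counts of these 5 genes are uncertain in level, and their nuclear copies held more reads than the genes did. Counts of mt-Co1 and mt-Nd4 are uncertain in level over the shared part. Among the 89 nuclear members, 43 shared no window with another gene, 23 shared over 10% and 1 shared over 50% (Ndufaf2, at 80.9%, with the overlapping RNA B230220B15Rik). The longest transcript of some nuclear members is far longer than the protein-coding exons used for lengths below (for Atp5l, 6261 windows against 544 bases), so these shares are of that transcript and not of the messenger alone.

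The promoters of many nuclear OXPHOS genes are known to bind the activators NRF1 and the ETS factor GABP, whose own genes are given further on. RefSeq promoters (GRCm38.p6, 250 bases before to 50 after the start) were matched for 75 of the 89 nuclear members. The NRF1 core GCGCANGCG, searched on both strands, was found in 22 of them (29.3%), against 7.03% of 27025 genes with a promoter. The ETS core CCGGAAG was found in 18 (24.0%), against 9.93%. Either was found in 34 (45.3%), against 15.5%. A gene with both cores, or with several matches, was counted once in that last share. By complex, promoters with either core were 40.0% in complex I, 3 of 3 in complex II, 3 of 5 in complex III, 3 of 11 in complex IV and 56.2% in complex V. The 100 bases before the start are shown for 4 genes whose values are given below: Cox6a1 and Ndufa11, where both libraries labelled cKO lay above both WT libraries, Ndufaf1, where both lay below, and Sdhd, where the libraries differed least among these. Capitals mark the cores as read on the gene's strand (CTTCCGG is the ETS core on the other strand), and the windows are chr5:115348959-115349058 (minus strand), chr17:56717662-56717761 (plus strand), chr2:119662835-119662934 (minus strand) and chr9:50603850-50603949 (minus strand) in the order printed:
Cox6a1: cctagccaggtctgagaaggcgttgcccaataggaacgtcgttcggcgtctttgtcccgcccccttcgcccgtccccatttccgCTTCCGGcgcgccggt
Ndufa11: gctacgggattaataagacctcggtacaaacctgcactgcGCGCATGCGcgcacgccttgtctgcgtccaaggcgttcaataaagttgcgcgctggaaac
Ndufaf1: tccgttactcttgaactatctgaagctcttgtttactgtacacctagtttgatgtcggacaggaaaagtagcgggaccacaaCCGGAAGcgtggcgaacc
Sdhd: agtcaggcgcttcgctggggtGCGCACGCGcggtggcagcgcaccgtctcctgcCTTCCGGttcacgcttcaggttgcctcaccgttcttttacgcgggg

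The cores were present in genes whose libraries labelled cKO lay above, below and among the WT libraries. A match is a description of the letters and was not tested as a site.

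All 101 members were measured in all 4 libraries and passed the filter on low counts, with counts from 4 (Cox7a1 in WT 1) to 135862 (mt-Co1 in WT 4). Libraries held 16625181 to 17940659 reads assigned to genes. The 12 mitochondrial members took 2.00% of reads in cKO 1 and 2.16% in cKO 2, against 2.41% in WT 1 and 2.15% in WT 4. The 89 nuclear members took 0.929% in cKO 1 and 0.905% in cKO 2, against 0.912% in WT 1 and 0.863% in WT 4. Per kilobase of annotated exon, the highest mean levels were those of mt-Co1 (4679 CPM per kilobase), mt-Cytb (4645) and mt-Nd1 (3673). The highest nuclear members were Atp5b, the catalytic beta subunit of the ATP synthase, at 575 CPM per kilobase, Cox6a1 at 405, Cox8a at 309 and Ndufa4 at 252. The lowest were the isoform Cox7a1 (1.19 CPM per kilobase), Ndufb2 (1.85) and the isoform Cox4i2 (1.86). The place of Ndufb2 follows from its annotated exon length of 4375 bases. It had 7.32 to 8.68 CPM, where Cox7a1 had 0.231 to 0.945 CPM and Cox4i2 0.807 to 1.84 CPM.

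No OXPHOS gene passed the test between the libraries labelled cKO and WT. With edgeR's quasi-likelihood test, 0 of 101 members were called at 5% FDR, as were 0 of all 16269 genes tested (0.0%), and DESeq2 also called 0, with 377 genes at an unadjusted p below 0.05. At an unadjusted p below 0.05 edgeR gave 1 member higher, Cox6a1, where 0.676% of all genes were higher, and 0 members lower, where 0.996% of all genes were lower. The smallest adjusted p of any member was 0.956. The text therefore gives levels and directions, with the spread between libraries.

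The nuclear members leaned to the libraries labelled cKO and the mitochondrial members to WT, by small amounts. The log2 fold change (cKO over WT) had a median of 0.11 over the 89 nuclear members, with 72 above 0 and 17 below, and single genes ran from -0.21 (Sdha) to 0.65 (Cox4i2). Over the 12 mitochondrial members the median was -0.17, with 1 above 0 and 11 below, from -0.72 (mt-Nd4l) to 0.018 (mt-Nd6). The 5 mitochondrial members with under 10% of their windows shared had a median of -0.046, with 1 above 0 and 4 below. The 5 with over 90% shared, whose counts are uncertain in level, had a median of -0.30, with 5 below. Over all genes tested the median was -0.013 and 48.1% were above 0. Both libraries labelled cKO lay above both WT libraries for 23 of 89 nuclear members (25.8%), where 16% of all genes did. They lay below for 2 of 89 nuclear members (2.25%, Ndufab1 and Ndufaf1), where 15.7% of all genes did. Of the 12 mitochondrial members, 0 lay above and 2 lay below (mt-Nd5 and mt-Co1).

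**Figure D1:**
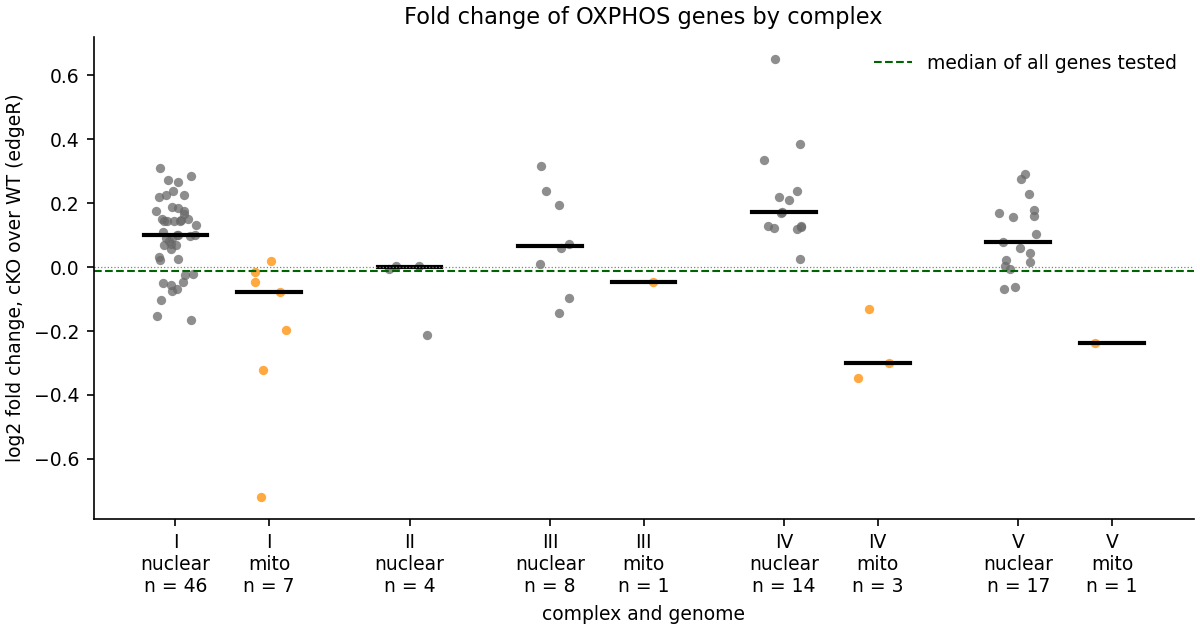
Log2 fold change (cKO over WT, edgeR) of each OXPHOS gene, grouped by complex and by the genome that encodes it (mito, mitochondrially encoded). Each point is a gene, black bars are medians and the dashed line is the median of all genes tested (-0.013): all 14 nuclear genes of complex IV lie above 0, and 11 of 12 mitochondrial genes lie below it.

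The nuclear lean rested on WT 4. Relative to each gene's mean over the 4 libraries, the median nuclear member stood at 0.035 in cKO 1 and 0.063 in cKO 2, against 0.024 in WT 1 and -0.14 in WT 4 (log2 of CPM + 0.5). Against WT 1 alone the median difference was 0.007 for cKO 1 and 0.015 for cKO 2, and 47 and 50 of 89 members were above it. Against WT 4 alone it was 0.20 for cKO 1 and 0.21 for cKO 2, and 70 and 66 members were above it. These pairs share their WT library, so they are not independent of each other. WT 4 minus WT 1, within the wild-type label, was -0.14. WT 4 held the lowest value of 55 of 89 nuclear members (61.8%), where it held the lowest of 36.3% of all genes. In the fit without WT 4 the nuclear median was 0.022, with 52 of 89 above 0, and in the fit without WT 1 it was 0.21.

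**Figure D2:**
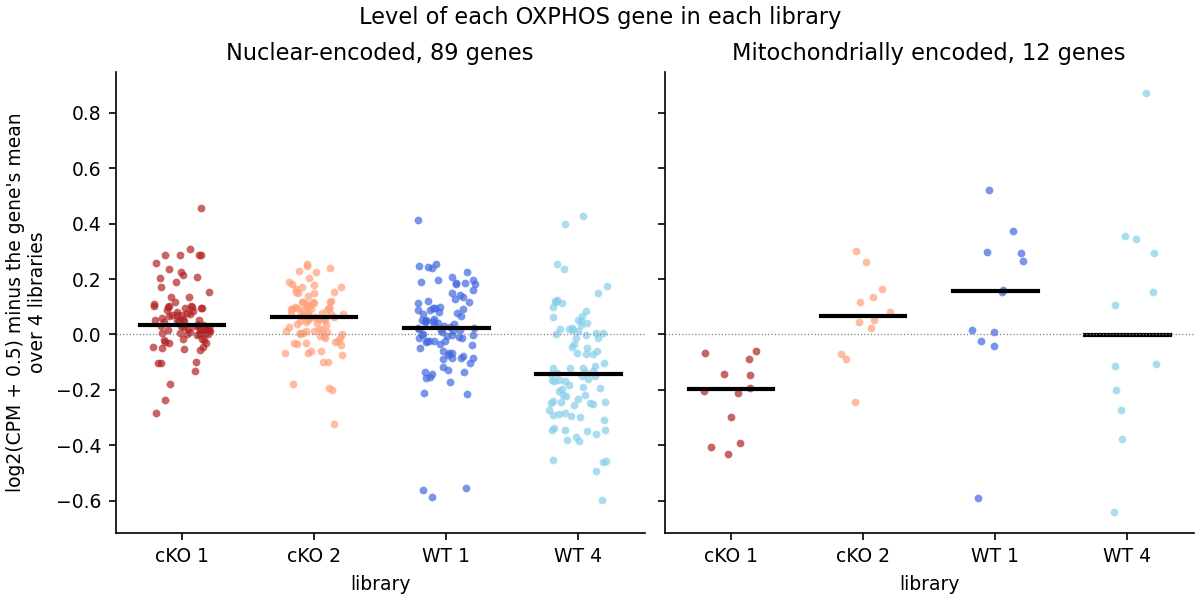
Level of each nuclear (left) and mitochondrially encoded (right) OXPHOS gene in each library, as log2(CPM + 0.5) minus the gene's mean over the 4 libraries. Points are genes and black bars medians: the nuclear genes sit near 0 in cKO 1, cKO 2 and WT 1 and lower in WT 4 (median -0.14), while the mitochondrial genes are lowest in cKO 1 (-0.20) and highest in WT 1 (0.16).

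Core and accessory subunits of the nuclear set had different medians. Core subunits here are the 7 nuclear subunits of complex I that have bacterial counterparts, the 4 of complex II, the Rieske protein Uqcrfs1, and Atp5a1, Atp5b, Atp5c1, Atp5d and Atp5e of the head and central stalk of complex V. The other subunits are called accessory, apart from the tissue-restricted isoforms. They take in Atp5g1, Atp5g2 and Atp5g3, which encode the proton-carrying rotor subunit of complex V, so the name is a label of this split only. The 17 nuclear core members had a median log2 fold change of 0.004, with 10 above 0 and 7 below. The 58 accessory members had a median of 0.13, with 51 above 0 and 7 below. WT 4 held the lowest value of 6 of 17 core members (35.3%) and of 41 of 58 accessory members (70.7%). The difference between the classes was not tested. Most core members had over 1000 bases of annotated exon, while most accessory members had up to 1000. Length is given next for the nuclear members together.

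Nuclear OXPHOS messengers are short, and the departure of WT 4 went with length. The median annotated exon length was 1021 bases for nuclear members and 3149 bases for all genes tested. Among the 43 nuclear members of up to 1000 bases, WT 4 minus the mean of the other 3 libraries had a median of -0.30 on the log2 scale, and 35 were below 0. Over all 1455 genes of that length it was -0.094, with 57.3% below 0. In the class from 1000 to 2000 bases the median was -0.080 for 33 nuclear members and -0.066 for all genes. In the class from 2000 to 4000 bases it was -0.15 for 10 nuclear members and -0.010 for all genes. Above 4000 bases, 3 nuclear members (Ndufb2, Ndufab1 and Atp5g1) had a median of 0.13, and all genes one of 0.076. The length joins the exons of all transcripts used for a gene, so it can exceed the length of its messenger. Across genes, Spearman's rho between exon length and the departure of WT 4 was 0.38 over the 89 nuclear members and 0.13 over 16247 genes tested, all read from the same 4 libraries. Between length and the log2 fold change it was -0.43 and -0.13. Genes are not independent replicates, so no p is given. The sources used here give no RNA integrity values, and their part was not tested.

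**Figure D3:**
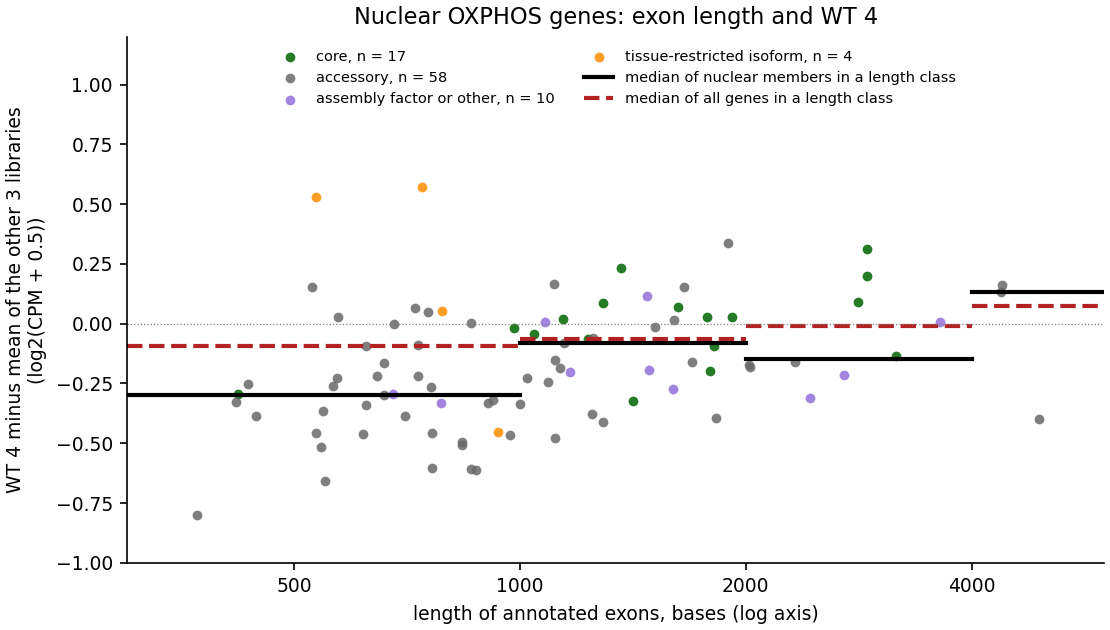
WT 4 minus the mean of the other 3 libraries (log2(CPM + 0.5)) against annotated exon length in bases (log axis) for the 89 nuclear OXPHOS genes, coloured by class. Solid bars are medians of nuclear members and dashed bars medians of all genes in 4 length classes: up to 1000 bases the solid bar lies at -0.30 and the dashed one at -0.094.

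Complex I, the NADH dehydrogenase, has 46 nuclear members here, 36 of them above 0, and their median log2 fold change was 0.10. The 7 nuclear core subunits had a median of 0.024 and the 30 accessory subunits one of 0.12. Ndufs1, the largest iron-sulphur subunit, had 56.6 and 54.2 CPM in cKO 1 and cKO 2, against 55.9 and 59.2 CPM in WT 1 and WT 4. Ndufv1, which binds NADH, had 128 and 123 CPM in cKO 1 and cKO 2, against 126 and 128 CPM in WT 1 and WT 4. The groups overlapped for both genes, whose log2 fold changes were -0.055 (SE 0.13) and -0.021 (SE 0.12).

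Both libraries labelled cKO lay above both WT libraries for 12 of the 46 nuclear members of complex I (26.1%), where 16% of all genes did. Ndufa11, an accessory membrane-arm subunit, had 80.2 and 76.2 CPM in cKO 1 and cKO 2, against 67.0 and 62.6 CPM in WT 1 and WT 4 (log2 fold change 0.27, SE 0.13). Ndufb9, also of the membrane arm, had 113 and 114 CPM in cKO 1 and cKO 2, against 103 and 84.0 CPM in WT 1 and WT 4 (0.29, SE 0.14). For Ndufa11 the WT libraries were close to each other, and for Ndufb9 WT 4 was the lower. Both had an edgeR adjusted p of 0.956. Ndufab1, the mitochondrial acyl carrier protein, which also serves fatty acid synthesis, had 20.8 and 23.9 CPM in cKO 1 and cKO 2, against 24.4 and 25.8 CPM in WT 1 and WT 4 (-0.16, SE 0.17). Ndufa4, now assigned to complex IV by most authors, had 164 and 167 CPM in cKO 1 and cKO 2, against 167 and 131 CPM in WT 1 and WT 4. Only WT 4 stood apart for this gene. Its paralog Ndufa4l2, a gene raised by low oxygen, was low in all 4 libraries, with 6.65 and 6.47 CPM in cKO 1 and cKO 2, against 7.09 and 4.78 CPM in WT 1 and WT 4.

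The 8 complex I assembly factors had a median log2 fold change of 0.11, with 5 above 0 and 3 below. Ndufaf1, which helps to build the membrane arm, had 15.8 and 13.2 CPM in cKO 1 and cKO 2, against 16.02 and 16.24 CPM in WT 1 and WT 4 (-0.15, SE 0.20). Ndufaf3, chosen after its values were seen, went the other way, with 36.9 and 33.3 CPM in cKO 1 and cKO 2, against 30.3 and 29.2 CPM in WT 1 and WT 4 (0.24, SE 0.16).

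Complex II, succinate dehydrogenase, is shared with the citrate cycle. Its 4 subunits had a median log2 fold change of -0.001, the smallest in size among the nuclear medians of the complexes. Sdhb, the iron-sulphur subunit, had 135 and 134 CPM in cKO 1 and cKO 2, against 134 and 136 CPM in WT 1 and WT 4. Sdhd, a membrane anchor, had 77.4 and 75.8 CPM in cKO 1 and cKO 2, against 78.8 and 74.0 CPM in WT 1 and WT 4. Sdhc, the other anchor, had 139 and 134 CPM in cKO 1 and cKO 2, against 146 and 127 CPM in WT 1 and WT 4. These 3 genes had log2 fold changes from -0.005 to 0.004, each with an SE of 0.12 to 0.13. Sdha, the flavoprotein that oxidises succinate, had 144 and 128 CPM in cKO 1 and cKO 2, against 143 and 172 CPM in WT 1 and WT 4 (-0.21, SE 0.15). For Sdha, WT 4 was the highest library and cKO 2 the lowest, and without WT 4 the log2 fold change was -0.069.

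Complex III, the cytochrome bc1 complex, has 8 nuclear members here, 6 of them above 0, and their median log2 fold change was 0.065. Uqcrfs1, the Rieske iron-sulphur protein, had 98.1 and 106 CPM in cKO 1 and cKO 2, against 99.2 and 119 CPM in WT 1 and WT 4 (-0.096, SE 0.14). Uqcrc2, a large matrix-facing subunit counted here as accessory, had 110 and 93.7 CPM in cKO 1 and cKO 2, against 97.9 and 127 CPM in WT 1 and WT 4 (-0.14, SE 0.17). WT 4 held the highest value of both. Uqcr11, a small membrane subunit for which WT 4 was the lowest library, had 57.5 and 47.9 CPM in cKO 1 and cKO 2, against 46.3 and 38.4 CPM in WT 1 and WT 4 (0.32, SE 0.17). Its groups did not overlap, but cKO 2 and WT 1 were close.

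Complex IV, cytochrome c oxidase, had the highest nuclear median, at 0.17, and all 14 nuclear members were above 0. In 5 of them the libraries labelled cKO lay above both WT libraries (35.7%; Cox4i2, Cox5a, Cox6a1, Cox7c and Cox8a, listed after their values were seen), where 16% of all genes did. Cox6a1 (ENSMUSG00000041697, chromosome 5, 115345642 to 115348981, minus strand) encodes the widely expressed form of a small subunit whose other form is used in heart and muscle. It had 284 and 240.5 CPM in cKO 1 and cKO 2, against 198 and 204 CPM in WT 1 and WT 4. The WT libraries were close to each other for this gene, and cKO 1 was the higher of its pair. The log2 fold change was 0.38 (SE 0.13, edgeR unadjusted p = 0.0261, adjusted p = 0.956), and it stayed between 0.26 and 0.50 when any 1 library was left out. Of the gene's 50-base windows, 7.18% also occur in another annotated gene.

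WT 4 held the lowest value of 10 of the 14 complex IV genes (71.4%). Cox4i1, the widely expressed form of the largest nuclear subunit, had 170 and 197 CPM in cKO 1 and cKO 2, against 190 and 122 CPM in WT 1 and WT 4 (0.24, SE 0.22). Without WT 4 its log2 fold change was -0.043. Cox8a, the smallest subunit, chosen after its values were seen, had 195 and 184 CPM in cKO 1 and cKO 2, against 182 and 118 CPM in WT 1 and WT 4 (0.34, SE 0.21). Cox7a2, the form used outside heart and muscle, had 85.7 and 95.4 CPM in cKO 1 and cKO 2, against 87.9 and 72.8 CPM in WT 1 and WT 4 (0.17, SE 0.15). In all 3 genes WT 1 lay beside the libraries labelled cKO and WT 4 below them.

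The tissue-restricted forms were near the lower limit of measurement. Cox4i2, the form known from lung and from low oxygen, had 33 and 30 reads in cKO 1 and cKO 2, against 14 and 25 reads in WT 1 and WT 4. That was 1.84 and 1.75 CPM in cKO 1 and cKO 2, against 0.807 and 1.48 CPM in WT 1 and WT 4 (0.65, SE 0.46). Cox7a1, the heart and muscle form, had 15 and 9 reads in cKO 1 and cKO 2, against 4 and 16 reads in WT 1 and WT 4 (0.22, SE 0.74). Muscle markers (4 of 5 listed) summed to 4.53 and 4.08 CPM in cKO 1 and cKO 2, against 4.90 and 3.72 CPM in WT 1 and WT 4. At such counts only a large difference could be detected.

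Complex V, the ATP synthase, had a nuclear median of 0.080, with 14 of 17 above 0. The catalytic head was even: Atp5b had 1142 and 1056 CPM in cKO 1 and cKO 2, against 1092 and 1116 CPM in WT 1 and WT 4 (-0.006, SE 0.12). Atp5a1, the alpha subunit of the head, had 628 and 591 CPM in cKO 1 and cKO 2, against 587 and 690 CPM in WT 1 and WT 4 (-0.068, SE 0.13). The proton-carrying c subunit of the rotor is made from 3 genes that encode one mature protein. Of their summed CPM, Atp5g1 gave 28.3% and 24.7% in cKO 1 and cKO 2, against 26.1% and 21.4% in WT 1 and WT 4. Atp5g2 gave 30.8% and 34.4% in cKO 1 and cKO 2, against 36.0% and 33.9% in WT 1 and WT 4, and Atp5g3 gave 40.9% and 40.9% in cKO 1 and cKO 2, against 37.9% and 44.7% in WT 1 and WT 4. Atp5g3 was the main source in all 4 libraries, and the shares of all 3 genes overlapped between the groups. Atp5k, a small membrane subunit chosen after its values were seen, had 26.8 and 29.8 CPM in cKO 1 and cKO 2, against 30.0 and 16.4 CPM in WT 1 and WT 4 (0.29, SE 0.29).

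The mitochondrially encoded genes of complex I fell into patterns that cut across the labels. mt-Nd1, a membrane core subunit, had 3150 and 3768 CPM in cKO 1 and cKO 2, against 4266 and 2877 CPM in WT 1 and WT 4 (-0.046, SE 0.21). mt-Nd2 had 1492 and 1757 CPM in cKO 1 and cKO 2, against 2120 and 1607 CPM in WT 1 and WT 4 (-0.20, SE 0.17). mt-Nd4 had 2220 and 2808 CPM in cKO 1 and cKO 2, against 3076 and 2226 CPM in WT 1 and WT 4 (-0.077, SE 0.20). In all 3, WT 1 was the highest library, and the WT pair lay farther apart than the group means. mt-Nd6, the only subunit encoded by the light strand, had 376 and 499 CPM in cKO 1 and cKO 2, against 597 and 266 CPM in WT 1 and WT 4 (0.018, SE 0.36). WT 1 was again the highest library, and its WT pair lay the widest apart of the 4.

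For mt-Nd5 the highest library was WT 4, with 677 and 599 CPM in cKO 1 and cKO 2, against 688 and 907 CPM in WT 1 and WT 4. Both libraries labelled cKO lay below both WT libraries, though cKO 1 and WT 1 were close (-0.32, SE 0.17, edgeR unadjusted p = 0.0997, adjusted p = 0.956). Without WT 4 its log2 fold change was -0.10. The annotated mt-Nd5 and mt-Nd6 overlap by 14 bases on opposite strands, and the sources used here do not say whether reads were counted by strand. mt-Nd3 had 5.64 and 8.80 CPM in cKO 1 and cKO 2, against 9.28 and 5.32 CPM in WT 1 and WT 4. mt-Nd4l had 11 and 12 reads in cKO 1 and cKO 2, against 6 and 31 reads in WT 1 and WT 4, too few for its log2 fold change of -0.72 (SE 0.79) to be read.

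mt-Cytb, the only mitochondrially encoded subunit of complex III, had 4989 and 5470 CPM in cKO 1 and cKO 2, against 5901 and 4896 CPM in WT 1 and WT 4 (-0.046, SE 0.14). In complex IV, mt-Co1, which holds the site where oxygen is reduced, had 6921 and 6876 CPM in cKO 1 and cKO 2, against 7098 and 8023 CPM in WT 1 and WT 4 (-0.13, SE 0.12). Its groups did not overlap, but WT 1 was nearer to the libraries labelled cKO than to WT 4, and without WT 4 the log2 fold change was -0.036. mt-Co2, which takes electrons from cytochrome c, had 68.2 and 94.7 CPM in cKO 1 and cKO 2, against 90.7 and 110 CPM in WT 1 and WT 4 (-0.30, SE 0.19). mt-Co3 had 105 and 144 CPM in cKO 1 and cKO 2, against 140 and 176 CPM in WT 1 and WT 4 (-0.35, SE 0.20). mt-Atp6, the proton channel of complex V, had 37.0 and 56.2 CPM in cKO 1 and cKO 2, against 56.0 and 53.9 CPM in WT 1 and WT 4 (-0.24, SE 0.22). For these last 3 genes cKO 1 was the lowest library and cKO 2 lay within the range of WT or just above it.

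Across the 12 mitochondrial genes, WT 1 held the highest value of 6, WT 4 that of 5 and cKO 2 that of 1 (mt-Atp6), while cKO 1 held none. The library medians, relative to each gene's mean, were -0.20 in cKO 1 and 0.066 in cKO 2, against 0.16 in WT 1 and -0.000 in WT 4. The median log2 fold change was -0.031 without cKO 1 and -0.093 without WT 1, with 6 of 12 genes below 0 in each of these fits. It was -0.29 without cKO 2 and -0.21 without WT 4.

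With the reads of nuclear copies added, the levels of mt-Co2, mt-Co3, mt-Atp6, mt-Nd3 and mt-Nd4l moved up the most. Those of mt-Co1 and mt-Nd4 moved up less, since the genes themselves held at least 95.5% of each sum. cKO 1 remained the lowest library for mt-Co2, mt-Co3 and mt-Atp6. mt-Co2 with its copies summed to 369 and 581 CPM in cKO 1 and cKO 2, against 501 and 552 CPM in WT 1 and WT 4, so that cKO 2 became the highest. The copy Gm28661 held 5373 and 8341 reads in cKO 1 and cKO 2, against 7117 and 7477 in WT 1 and WT 4, and mt-Co2 itself took 18.5% and 16.3% of the summed reads in cKO 1 and cKO 2, against 18.1% and 19.9% in WT 1 and WT 4. mt-Co3 took 29.3% and 26.4% of its sum in cKO 1 and cKO 2, against 29.6% and 33.2% in WT 1 and WT 4. mt-Atp6 took 12.1% and 9.47% in cKO 1 and cKO 2, against 11.4% and 9.79% in WT 1 and WT 4. With these reads added, the 3 genes had log2 fold changes of -0.15, -0.15 and -0.21, and the median of all 12 was -0.14, with 10 below 0. This sum was added after the data were seen.

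**Figure D4:**
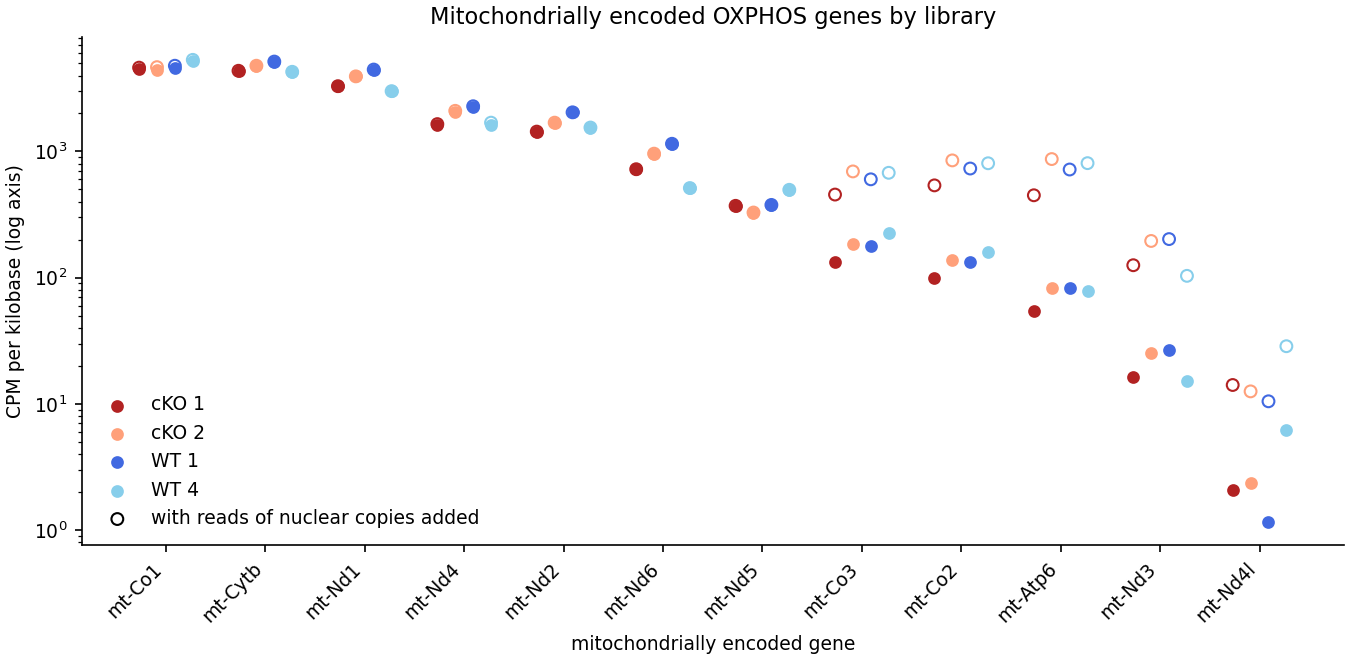
CPM per kilobase (log axis) of the 12 mitochondrially encoded OXPHOS genes in each library, ordered by mean level. Filled points are the deposited counts and open points have the reads of nuclear copies added: mt-Co3, mt-Co2, mt-Atp6, mt-Nd3 and mt-Nd4l move up, while genes to their left hardly move.

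The ratio of mitochondrial to nuclear summed CPM within each complex sets both genomes side by side in each library. The mitochondrial sums hold only reads assigned to these genes, so their level depends on how reads shared with nuclear copies were assigned. The ratio is therefore not a ratio of messenger levels. Over all complexes the log2 ratio of summed CPM was 1.10 and 1.26 in cKO 1 and cKO 2, against 1.40 and 1.32 in WT 1 and WT 4. The groups did not overlap, and the means differed by -0.18, where the pooled SD was 0.087. Without WT 4 the difference was -0.22, and without cKO 1 it was -0.10. A permutation of 2 against 2 libraries cannot give an exact two-sided p below 0.333, so none is given. For complex I the log2 ratio was 1.50 and 1.76 in cKO 1 and cKO 2, against 1.98 and 1.65 in WT 1 and WT 4, and the groups overlapped. The complex I difference of -0.19 was -0.023 without WT 1 and -0.35 without WT 4. For complex III it was 2.66 and 2.79 in cKO 1 and cKO 2, against 2.94 and 2.68 in WT 1 and WT 4, again with overlap. For complex IV it was 2.12 and 2.09 in cKO 1 and cKO 2, against 2.19 and 2.70 in WT 1 and WT 4. The complex IV ratio was lower in both libraries labelled cKO, by -0.34, and the difference was -0.088 without WT 4 and -0.59 without WT 1. The mitochondrial sum of complex IV was mostly mt-Co1, at 6921 of 7094 CPM in cKO 1 and 8023 of 8310 CPM in WT 4. With the reads of nuclear copies added, the complex IV difference was -0.33. For complex V the ratio rests on mt-Atp6 alone, and it was -6.61 and -5.96 in cKO 1 and cKO 2, against -5.96 and -5.98 in WT 1 and WT 4. There cKO 1 alone stood apart, and most reads of mt-Atp6 sequence were assigned to its nuclear copy.

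**Figure D5:**
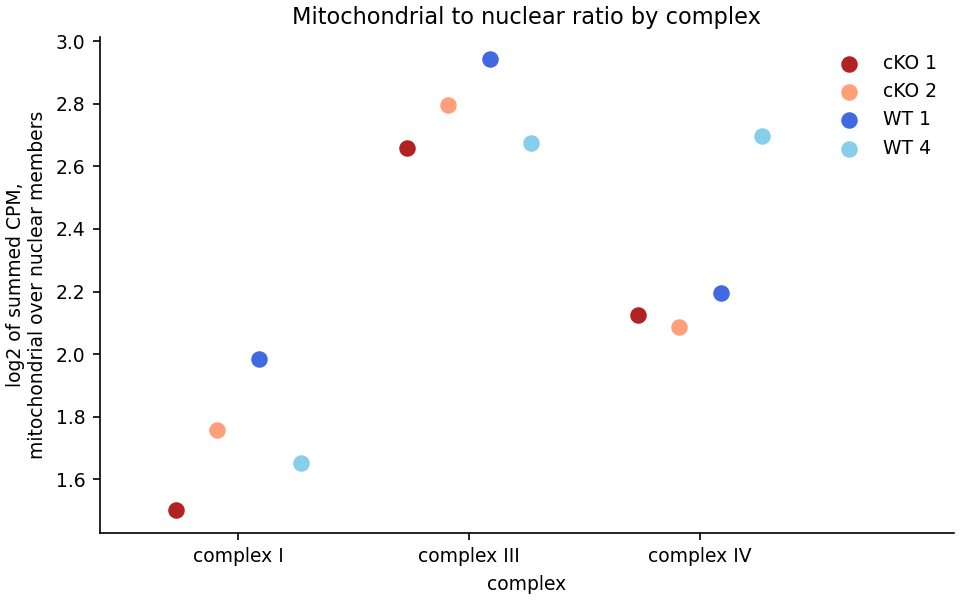
Log2 ratio of summed CPM of mitochondrial over nuclear members of complexes I, III and IV in each library. In complex I cKO 1 is lowest (1.50) and WT 1 highest (1.98), while in complex IV WT 4 stands apart at 2.70 and the other 3 lie between 2.09 and 2.19.

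The authors' deposited tables each compare 1 library with 1 other and share no library. By the study's thresholds (p below 0.05 and more than 1 log2 unit in either direction), the authors' deposited table of cKO 1 against WT 4 held 0 members higher, where 4.97% of listed genes were, and 1 lower (mt-Nd4l), where 4.64% were. The authors' deposited table of cKO 2 against WT 1 held 1 member higher (Cox4i2), where 1.44% of listed genes were, and 0 lower, where 3.01% were. In the authors' deposited table of cKO 1 against WT 4 the median log2 fold change was 0.17 for nuclear and -0.19 for mitochondrial members, against -0.049 for all listed genes. In the authors' deposited table of cKO 2 against WT 1 it was -0.020 for nuclear and -0.13 for mitochondrial members, against -0.024 for all listed genes. The nuclear lean is thus in the table with WT 4, and the mitochondrial one is in both.

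In a fit that left out WT 1, and so set cKO 1 and cKO 2 against WT 4 alone, 9 of 101 members passed 5% FDR (8.91%), close to the 10.9% of all genes. Of these, 8 were higher, where 5.34% of all genes were higher, and 1 was lower, where 5.59% were. The 7 nuclear ones, named because they passed in this fit, were Cox8a (log2 fold change 0.68, edgeR adjusted p = 0.00539), Cox4i1 (0.60), Ndufs5 (0.64), Atp5k (0.80), Ndufa5 (0.58), Atp5o (0.48) and Ndufb9 (0.44). The mitochondrial ones were mt-Nd6, higher at 0.72, and mt-Nd5, lower at -0.50. The lone WT library is assumed here to vary like the others, and none of the 9 was called with all 4 libraries or without WT 4.

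The genes around the complexes were read in the same way, and 0 passed 5% FDR in any list. Of the assembly factors that the symbol rule left out, 37 of 39 were tested, with 21 above 0, and the median log2 fold change was 0.022. Genes of mitochondrial transcription, RNA and DNA upkeep (25 tested, of 29 symbols listed) had 6 above 0 and 19 below, with a median of -0.084. The symbols Fastkd4 and Peo1 in that list are other names of Tbrg4 and Twnk, which were tested. The libraries labelled cKO lay below both WT libraries for 9 of these 25, where 15.7% of all genes did. Among them was Tfam, which packages mitochondrial DNA and starts its transcription, with 41.5 and 41.5 CPM in cKO 1 and cKO 2, against 46.9 and 52.6 CPM in WT 1 and WT 4 (-0.26, SE 0.14). Lrpprc, which stabilises mitochondrial messengers, was another, with 52.8 and 54.0 CPM in cKO 1 and cKO 2, against 59.2 and 60.4 CPM in WT 1 and WT 4 (-0.16, SE 0.13). Both were chosen after their values were seen, and neither passed the test (edgeR adjusted p = 0.956 for each).

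Nuclear regulators of respiratory genes (11 of 11 tested) had 2 above 0 and 9 below, with a median of -0.21. Nrf1 had 61.9 and 62.9 CPM in cKO 1 and cKO 2, against 65.1 and 68.3 CPM in WT 1 and WT 4 (-0.096, SE 0.13). Gabpa, the DNA-binding subunit of GABP, had 25.2 and 27.2 CPM in cKO 1 and cKO 2, against 26.7 and 40.1 CPM in WT 1 and WT 4 (-0.35, SE 0.23), with WT 4 alone apart. These 2 genes encode the factors whose cores were searched in the promoters above. Electron carriers and coenzyme Q genes (14 tested, of 17 symbols listed) had 9 above 0 and a median of 0.064. Among those symbols, Adck3 and Adck4 are other names of Coq8a and Coq8b, which were tested. The citrate cycle (14 of 14) had 6 above 0 and a median of -0.028. Outer membrane and import genes (18 of 19) had 15 above 0 and 3 below, with a median of 0.047. Complex V genes outside the rule (5 tested, of 6 symbols listed) had 3 above 0 and a median of 0.19. They were Usmg5 and 2010107E04Rik, which encode small subunits, the inhibitor Atpif1, and the assembly factors Atpaf1 and Atpaf2. Atpaf1 and Atpaf2 were also counted in the list of assembly factors above. The symbol Mp68 is another name of 2010107E04Rik.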

How the data were processed

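Tools named in the submitters' processing notes are HTSeq 0.6.0, TopHat2 2.0.12 and Bowtie2 2.2.3, with the build mm9. Per the file headers, the authors deposited 2 tables, each for 1 library against 1 other, with read counts, normalised values, raw and adjusted p-values, and the fold change both as a ratio and as its log2. The deposited normalised values equalled CPM, the count over 1 constant per library (tolerance 1e-06), with a count of 0 replaced. Positions in the tables are those of GRCm38, since 92.2% of 22574 genes had the start and end of GENCODE M21. No source used here says whether reads were counted by strand.

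The counts of the 19844 genes in both tables were joined (Python 3.11.15) and tested by the two-sided quasi-likelihood test of edgeR 4.0.16 (R 4.3.3) with TMM scaling, after filterByExpr at a minimum count of 10. The Benjamini-Hochberg adjustment ran over 16269 genes, and the fit had 2 residual degrees of freedom. Printed CPM values carry the TMM scaling. The 2775 genes in 1 table only were added as an alternative. Lengths come from the exons of GENCODE M21 basic transcripts (protein-coding ones where a gene has any), shared 50-base windows from each member's longest GENCODE M21 transcript of any type, and promoters from RefSeq. Alternatives were DESeq2 1.42.0, other scalings and filters, a block for the deposited table, fits without 1 library, and reads of nuclear copies added. The test was checked on simulated data with large planted changes and the same dispersion for every gene. That check does not speak for changes as small as those of the members.

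Members and lists were chosen with earlier results of these data known. Genes named were the mitochondrial members, complex II, chosen core and isoform genes, and the 4 nuclear members each way with the smallest p; others are said to be chosen after their values were seen. The 3 genes with ribosomal RNA reads were picked in an earlier analysis of these libraries. Some items are not reported here.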

Additional observations from a re-analysis of the deposited data

How the results depend on the processing

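The number of genes past 5% FDR was 0 under DESeq2, other scalings and filters, the table block and added nuclear copies. Leaving out 1 library gave 0 to 1849 calls over all genes (1849 without WT 1, and 1 without cKO 1, which was Tagln2) and 0 to 9 among the OXPHOS members. The nuclear median log2 fold change ran from 0.022 without WT 4 to 0.21 without WT 1, and elsewhere from 0.081 (without cKO 2) to 0.13. The mitochondrial median ran from -0.29 to -0.031 with 1 library left out. With 1 library left out, the mitochondrial to nuclear difference ran from -0.35 (without WT 4) to -0.023 (without WT 1) in complex I, from -0.21 (without WT 4) to 0.051 (without WT 1) in III, from -0.59 (without WT 1) to -0.088 (without WT 4) in IV and from -0.63 (without cKO 2) to 0.012 (without cKO 1) in V. With 1 library left out, log2 fold changes changed sign for 21 named genes: mt-Nd1 (-0.30 to 0.27), mt-Nd2 (-0.38 to 0.020), mt-Nd3 (-0.37 to 0.44), mt-Nd4 (-0.28 to 0.18), mt-Nd4l (-1.47 to 0.92), mt-Nd6 (-0.44 to 0.72), mt-Cytb (-0.17 to 0.098), mt-Atp6 (-0.57 to 0.033), Sdhb (-0.014 to 0.013), Sdhc (-0.087 to 0.11), Sdhd (-0.037 to 0.052), Ndufv1 (-0.047 to 0.005), Uqcrfs1 (-0.22 to 0.048), Uqcrc2 (-0.32 to 0.060), Atp5a1 (-0.18 to 0.058), Atp5b (-0.063 to 0.049), Atp5g2 (-0.039 to 0.080), Cox4i1 (-0.043 to 0.60), Cox7a1 (-0.46 to 1.54), Ndufa4 (-0.009 to 0.34) and Ndufa4l2 (-0.11 to 0.46). mt-Nd3 was 0.002 with the table block and 0.070 with nuclear copies added, an alternative chosen after seeing the data. The cause of these changes was not tested. No paired analysis was possible because the labels give the groups only 1 shared replicate number. A fit with the deposited table as a block, which joins cKO 1 with WT 4 and cKO 2 with WT 1 only as they were deposited together, gave 0 calls, 920 genes at an unadjusted p below 0.05 and a smallest member adjusted p of 0.788. Depth limits mt-Nd4l, Cox7a1, Cox4i2 and Cox6b2, which had under 60 reads in every library.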

Other observations

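The mitochondrial ribosomal RNAs, which are not OXPHOS subunits but come from the same strand as mt-Nd1, were listed too. mt-Rnr1 had 355 and 455 CPM in cKO 1 and cKO 2, against 552 and 231 CPM in WT 1 and WT 4, and mt-Rnr2 had 402 and 568 CPM in cKO 1 and cKO 2, against 659 and 317 CPM in WT 1 and WT 4. WT 1 was the highest and WT 4 the lowest library for both, which was also so for mt-Nd1, mt-Nd3, mt-Nd6 and mt-Cytb. Their log2 fold changes were 0.050 (SE 0.38) and -0.010 (SE 0.34), and neither was called by edgeR.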
